A study of Mus musculus with 9 samples.

Results

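The cathepsins are proteases that break down proteins in lysosomes and, when secreted, in the matrix around cells. Transcripts of 9 cathepsin genes were followed in 3 mouse stromal cell lines: Ctsa, Ctsb, Ctsc, Ctsd, Ctsh, Ctsk, Ctsl, Ctss and Ctsz. They were found by taking every probe set whose platform annotation gives one of these symbols and no other. This gave 18 of the 36701 probe sets that are no controls, and 9 of the 15964 genes named by 1 symbol. By array type, 14 of the 18 were on MG-U74A, 3 on MG-U74C and 1 on MG-U74B. Ctsa and Ctsz lie on chromosome 2, Ctsk and Ctss on 3, Ctsc and Ctsd on 7, Ctsh on 9, Ctsl on 13 and Ctsb on 14.

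The lines were OP9, a hematopoiesis supportive line from the calvaria of newborn mice, AGM-s3-A9, a supportive line from the aorta-gonad-mesonephros (AGM) region of the embryo, and AGM-s3-A7, a non-supportive line from the same region. No genotype or treatment is given for any of them in the labels; as background, OP9 comes from op/op mice, which lack functional macrophage colony-stimulating factor. Total RNA of every line went onto 1 array of each of 3 Affymetrix types that carry different probe sets, which makes 9 arrays. The design sets the supportive lines against AGM-s3-A7, the only non-supportive line. Support thus cannot be told apart from other differences between the lines, among them, for OP9, the tissue and age of origin.

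By catalytic residue the family has 3 branches. Cathepsins B, C, H, K, L, S and Z are cysteine proteases related to papain, cathepsin D is an aspartic protease, and cathepsin A is a serine carboxypeptidase. They are made as inactive precursors, carried to lysosomes largely by mannose 6-phosphate receptors, and activated in the acid of that compartment. Cystatins and stefins hold the cysteine cathepsins in check, while the aspartic and serine members are outside their reach. In stroma and bone the branch is best known for cathepsin K, the collagen-cleaving enzyme of osteoclasts that fibroblasts also make, and in hematopoietic niches secreted cathepsins K and L have been described as able to cleave Cxcl12 and membrane-bound Kit ligand.

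Levels below are intensities after quantile normalization within an array type, an arbitrary linear scale on which 1 probe set can be compared between lines but not with another probe set. The detection level was 49.0 for MG-U74A, 52.8 for MG-U74B and 61.6 for MG-U74C. It is the higher of the array type's median and the 95th percentile of 34 control probe sets that should find no target. On MG-U74A it is the median, so 6244 of 12488 probe sets, controls included, are above it in each line by construction. The numbers are 4297 of 12477 on MG-U74B and 1611 of 11934 on MG-U74C. A line at or below the detection level was set to it, and the fold then reads "at least". Since a line has a single array of each type, there is no replication, so no p-value, SD or standard error can be given, and hybridisation or culture effects cannot be told apart from the line. The size of a ratio is set beside the spread between probe sets of 1 gene on the same array type, a robust SD of the log2 ratio of 0.30 for AGM-s3-A9 over AGM-s3-A7 (1160 genes), 0.31 for OP9 over AGM-s3-A7 (1134 genes) and 0.32 for OP9 over AGM-s3-A9 (1128 genes). This spread does not cover separate cultures.

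The arrays read as stroma with little sign of myeloid cells, which are rich in several cathepsins. Of 12 stromal markers 10 were above the detection level in at least 1 line, among them Col1a1, Col1a2 and Pdgfrb. Vim and Nt5e were not; the single Vim probe set read 22.9 in OP9, 21.7 in AGM-s3-A9 and 17.9 in AGM-s3-A7, so a silent probe set does not show that a transcript is absent. Of 21 macrophage and monocyte markers 19 lay at or below the level in every line, including Ptprc, Cd68, Csf1r, Lyz2, Adgre1 and Itgam, the highest of their values being 45.7. The exceptions were Cd14 and Cx3cr1. The summed level of the 21 was 754 in OP9, 853 in AGM-s3-A9 and 900.0 in AGM-s3-A7. Of 8 osteoclast markers on the arrays Acp5 and 6 others were at or below the level in every line, and Mmp9 was the exception.

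Of the 18 cathepsin probe sets 9 were above the detection level in at least 1 line, all on MG-U74A, and they stand for 7 of the 9 genes. With 6244 of the 12488 probe sets on MG-U74A above it in any single line, this count is not read as a result about the cathepsins. In such cultures, fewer cells of a type and less RNA per cell cannot be told apart. In AGM-s3-A9 over AGM-s3-A7, 1 of these 9 probe sets was at least 2-fold higher (Ctsh) and 1 at least 2-fold lower (Ctsk), where 3.11% and 2.07% of the 6616 probe sets measured on MG-U74A in this pair were. For OP9 over AGM-s3-A7 the counts were 1 higher (Ctsd) and 3 lower (Ctsh, Ctsk and 1 of 3 for Ctsb), against 5.15% and 5.92% of 6718 probe sets. Between the supportive lines, OP9 over AGM-s3-A9, 0 were higher and 1 was lower (Ctsh), against 4.88% and 6.66% of 6685. The median log2 ratio by gene was -0.08, -0.44 and -0.14 in these pairs, where the median over all genes was 0.01, 0.04 and 0.02. The comparisons share arrays, so their counts are not independent, and both ratios against AGM-s3-A7 carry the same AGM-s3-A7 value.

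**Figure D1:**
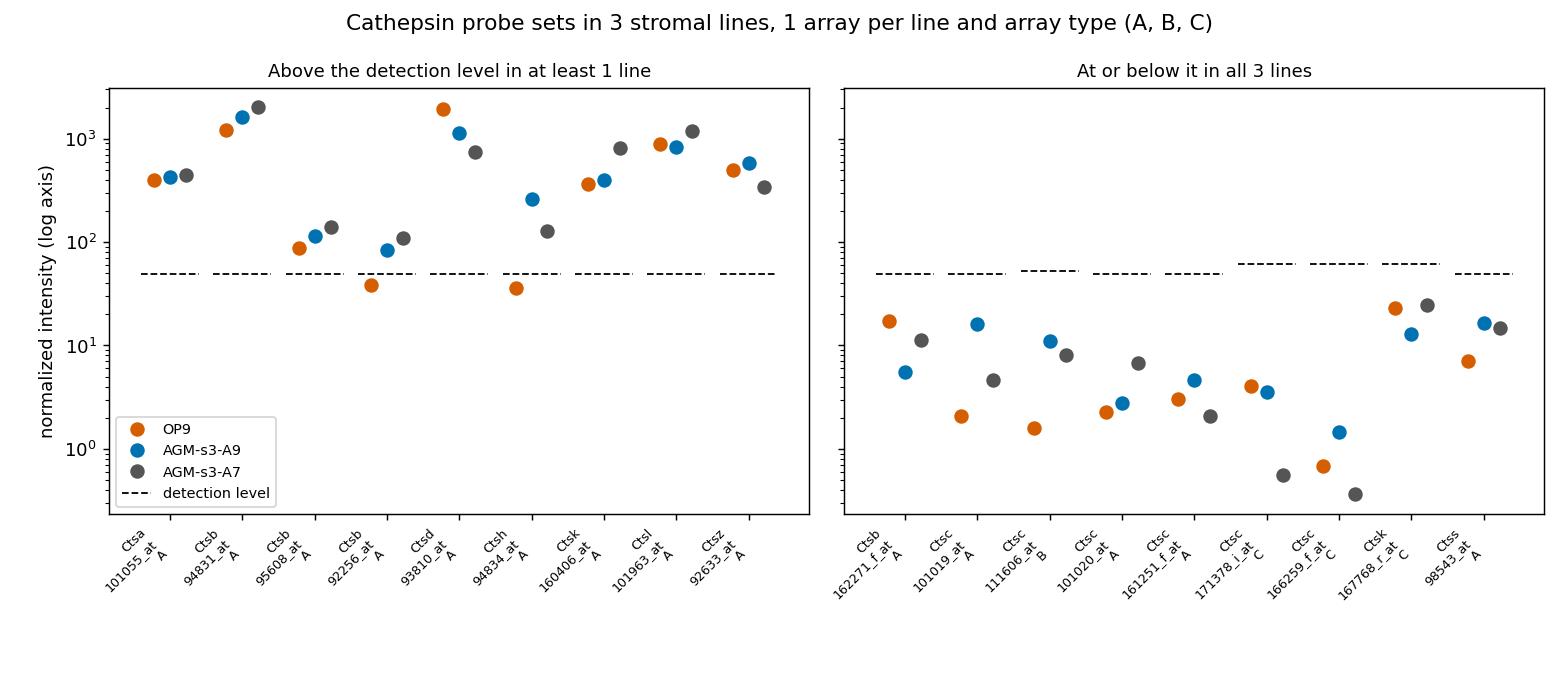
Normalized intensity (log axis) of the 18 cathepsin probe sets in OP9, AGM-s3-A9 and AGM-s3-A7, 1 point per array; letters under the probe set names give the array type and dashed bars the detection level. The 9 probe sets on the left stand for Ctsa, Ctsb, Ctsd, Ctsh, Ctsk, Ctsl and Ctsz, and the 9 on the right, with all 6 of Ctsc and the 1 of Ctss, stay between 0.363 and 24.4.

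Ctsd, the aspartic protease that does much of the bulk protein breakdown in lysosomes, was highest in OP9. Its 1 probe set (93810_at) read 1929 in OP9, 1143 in AGM-s3-A9 and 747 in AGM-s3-A7. It was thus above AGM-s3-A7 by 2.58-fold in OP9 and by 1.53-fold in AGM-s3-A9. The first of these log2 ratios, 1.37, is 4.36 times the spread between probe sets, and the other, 0.61, is 2.03 times. OP9 was 1.69-fold higher than AGM-s3-A9, or 2.33 times the spread, so the order of the lines was OP9, AGM-s3-A9, AGM-s3-A7. On the values as deposited the log2 ratio of OP9 over AGM-s3-A9 was 0.16, inside the spread. On MG-U74A 2.23% of the measured probe sets were as far or further above AGM-s3-A7 in OP9.

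Ctsk, the collagen-cleaving cysteine protease, went the other way. Probe set 160406_at read 360.2 in OP9, 398 in AGM-s3-A9 and 819 in AGM-s3-A7. Both supportive lines were lower, by 2.27-fold in OP9 and by 2.06-fold in AGM-s3-A9, with log2 ratios of -1.18 and -1.04 that are 3.78 and 3.45 times the spread. The supportive lines were 1.11-fold apart, which is inside the spread, but on the values as deposited OP9 over AGM-s3-A9 had a log2 ratio of -0.80. A second Ctsk probe set, 167768_r_at on MG-U74C, lay below the detection level in all lines, at 23.2 in OP9, 13.0 in AGM-s3-A9 and 24.4 in AGM-s3-A7, and its suffix marks a probe choice with relaxed rules, so 1 probe set carries this result. Of the osteoclast markers, Acp5 read 39.0 in OP9, 37.8 in AGM-s3-A9 and 27.6 in AGM-s3-A7, all short of the detection level, while Mmp9, at 16.6 in OP9, 562 in AGM-s3-A9 and 116 in AGM-s3-A7, had another order.

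Ctsd and Ctsk differed in opposite directions from AGM-s3-A7 in both supportive lines, and the bases before their starts are shown for that reason. Promoters from RefSeq (GRCm38.p6) matched 7 of the 9 genes, with 8 starts in all since Ctsa has a pair of them. The 250 bases before each start were searched for CACGTG, the core of the sequence bound by TFEB and related regulators of lysosomal genes, which reads the same on both strands. It was in 3 of the 8 windows, those of Ctsd, Ctsl and 1 start of Ctsa, and in 6.02% of all 32851 windows of that length. The Ctsd window (chr7:142387828-142388077, minus strand) holds it at 2 places, beginning 245 and 98 bases before the start. That of Ctsk (chr3:95498960-95499209, plus strand) has no match, and its share of G and C is 43.2%, against 67.2% in Ctsd. Of the other genes with CACGTG, Ctsl was lower in both supportive lines at quantile normalization and Ctsa was level. Ctsz, without it, was higher in both, and Ctsc and Ctss, also without it, were not detected. Whether the motif has any part in the ratios was not tested. Capitals mark CACGTG, and both sequences run 5′ to 3′ toward the start.
Ctsd: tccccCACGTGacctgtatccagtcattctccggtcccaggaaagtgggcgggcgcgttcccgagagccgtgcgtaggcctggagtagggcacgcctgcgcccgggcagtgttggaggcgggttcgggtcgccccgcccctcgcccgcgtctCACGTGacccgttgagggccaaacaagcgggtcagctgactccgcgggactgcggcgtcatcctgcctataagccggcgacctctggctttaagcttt
Ctsk: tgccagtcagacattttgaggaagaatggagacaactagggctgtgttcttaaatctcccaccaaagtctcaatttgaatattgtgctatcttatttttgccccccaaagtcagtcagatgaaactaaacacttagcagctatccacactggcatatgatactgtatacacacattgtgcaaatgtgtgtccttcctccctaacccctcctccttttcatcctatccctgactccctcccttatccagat

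Ctsh, an aminopeptidase of the papain branch, separated the supportive lines from each other. Probe set 94834_at read 35.7 in OP9, 260.3 in AGM-s3-A9 and 127 in AGM-s3-A7. The OP9 value is below the detection level, while both AGM lines are above it. AGM-s3-A9 was 2.05-fold higher than AGM-s3-A7, a log2 ratio of 1.03 or 3.43 times the spread. OP9 was at least 2.60-fold lower than AGM-s3-A7 and at least 5.31-fold lower than AGM-s3-A9, the widest gap of any cathepsin probe set in the 3 pairs. On MG-U74A 0.987% of the probe sets measured in OP9 and AGM-s3-A9 were as far or further down in OP9. In the 2-fold calls it was the 1 cathepsin on opposite sides of AGM-s3-A7 in the supportive lines.

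Ctsz, a carboxypeptidase of the papain branch also known as cathepsin X, was higher in both supportive lines without reaching 2-fold. Its probe set (92633_at) read 499 in OP9, 575 in AGM-s3-A9 and 339 in AGM-s3-A7. The ratios over AGM-s3-A7 were 1.47-fold in OP9 and 1.69-fold in AGM-s3-A9, which are 1.77 and 2.53 times the spread. The supportive lines were 1.15-fold apart, inside it, while the values as deposited gave a log2 ratio of -0.84 for OP9 over AGM-s3-A9.

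Ctsb, a widely expressed lysosomal endopeptidase and exopeptidase, was lowest in OP9 on each of 3 probe sets above the detection level. The brightest, 94831_at, read 1199 in OP9, 1625 in AGM-s3-A9 and 2012 in AGM-s3-A7. Probe set 95608_at read 88.0 in OP9, 115 in AGM-s3-A9 and 141 in AGM-s3-A7, and 92256_at read 38.9, which is below the detection level, in OP9, 83.6 in AGM-s3-A9 and 110.4 in AGM-s3-A7. All 3 thus ran in the same order of lines. Relative to AGM-s3-A7, OP9 was 1.68-fold lower on 94831_at, 1.60-fold lower on 95608_at and at least 2.25-fold lower on 92256_at. For AGM-s3-A9 over AGM-s3-A7 the 3 log2 ratios averaged -0.33 with an SD of 0.06 over probe sets, which share 1 RNA and are not replicates. One more, 162271_f_at, was below the detection level in every line, between 5.50 and 17.1.

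Of the 10 detected stromal markers, 3 were at least 2-fold lower in OP9 relative to AGM-s3-A7 (Col3a1, Thy1 and Sparc) and 1 was higher (Vcam1), with 8 ratios below 0 and 2 above. Of all 8739 genes measured in this pair, 5.98% were lower and 5.14% higher. Between OP9 and AGM-s3-A9, 6 were below 0 and 4 above. Summed over the list of 12, the level was 11938 in OP9, 21051 in AGM-s3-A9 and 21796 in AGM-s3-A7, a sum led by the brightest probe sets. Their part in the Ctsb result was not tested.

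Ctsl, the endopeptidase described as degrading matrix and invariant chain, read 880.5 in OP9, 832 in AGM-s3-A9 and 1197 in AGM-s3-A7. It was 1.36-fold lower in OP9 and 1.44-fold lower in AGM-s3-A9, between 1.41 and 1.74 times the spread. Ctsa, the protective protein that holds neuraminidase 1 and beta-galactosidase in a stable complex, was level in all lines, at 397 in OP9, 421 in AGM-s3-A9 and 445 in AGM-s3-A7. Its largest ratio, 1.12-fold lower in OP9 cells than in AGM-s3-A7, is 0.524 of the spread. Of its partners, Neu1 lay at or below the detection level in all lines, and Glb1 read 160.4 in OP9, 273 in AGM-s3-A9 and 224 in AGM-s3-A7.

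**Figure D2:**
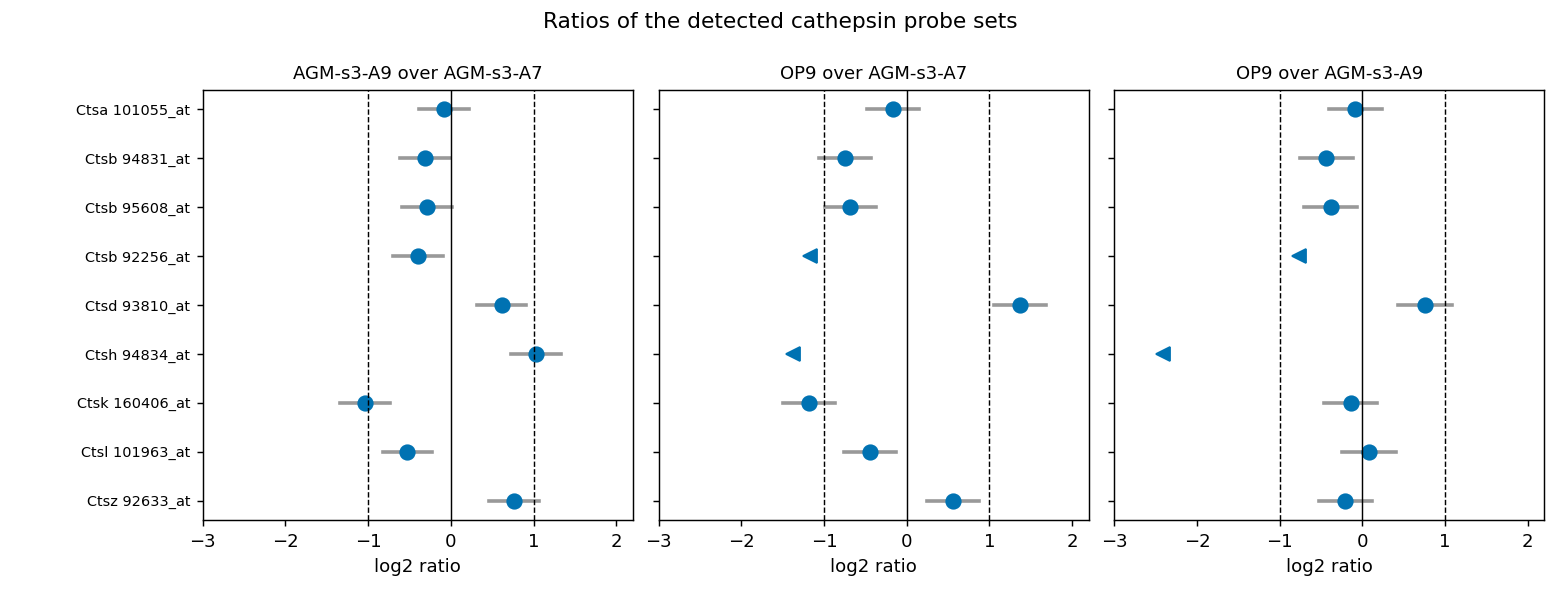
Log2 ratio of each of the 9 detected cathepsin probe sets in the 3 pairs of lines. Grey bars give 1 robust SD between probe sets of a gene, dashed lines 2-fold, and left-pointing triangles bounds against a line at the detection level; Ctsk lies left of or on the 2-fold line in both comparisons with AGM-s3-A7, and Ctsh changes side.

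Ctsc and Ctss, both abundant in hematopoietic cells, were not detected. Ctsc, dipeptidyl peptidase I, which activates granule proteases, has 6 probe sets on 3 array types, and its values ran from 0.363 to 16.0. Ctss, the endopeptidase that trims the invariant chain in antigen-presenting cells, read 7.01 in OP9, 16.5 in AGM-s3-A9 and 14.6 in AGM-s3-A7. No fold is given for either. Of 13 genes whose products these enzymes process or whose chains travel with them, 9 were at or below the level in every line. Cd74, the invariant chain gene, was above it, at 53.9 in OP9, which is close to the level, 219.5 in AGM-s3-A9 and 75.6 in AGM-s3-A7. Cd74 was thus above AGM-s3-A7 by 2.90-fold in AGM-s3-A9 and below it by 1.40-fold in OP9. In AGM-s3-A9 over AGM-s3-A7, 1 of 3 measured genes of this list was at least 2-fold higher (Cd74) and 0 lower. Of all 8590 genes, 3.08% were higher and 2.28% lower.

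How arrays are scaled bears on the AGM-s3-A9 comparison most. On the values as deposited the median log2 ratio of all measured MG-U74A probe sets was 0.62 for AGM-s3-A9 over AGM-s3-A7, and with scaling to hybridization controls it was 0.35, against -0.02 with quantile normalization. Over 5 scalings, Ctsh kept a ratio above 2-fold in all 5, with log2 ratios from 1.03 to 1.76. Ctsk was lower in all 5 (-1.07 to -0.34) but reached 2-fold in 3, the exceptions being the values as deposited and hybridization control scaling. Ctsd (0.54 to 1.27) and Ctsz (0.75 to 1.48) were higher in all 5, whereas Ctsa, Ctsl and the 3 detected Ctsb probe sets changed direction. Relative to the array's own median the ranges were narrower, from 1.05 to 1.14 for Ctsh, from -1.02 to -0.96 for Ctsk, from 0.60 to 0.65 for Ctsd, from 0.78 to 0.86 for Ctsz and from -0.61 to -0.51 for Ctsl. Subtracting the median removes any factor common to an array, so this narrowing is largely by construction. For OP9 over AGM-s3-A7 the direction held in all 5 for each detected probe set other than that of Ctsa, and Ctsd lay between 1.33 and 1.57. Ctsk reached 2-fold there in 4 of the 5 and the Ctsb probe set 92256_at in 3.

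**Figure D3:**
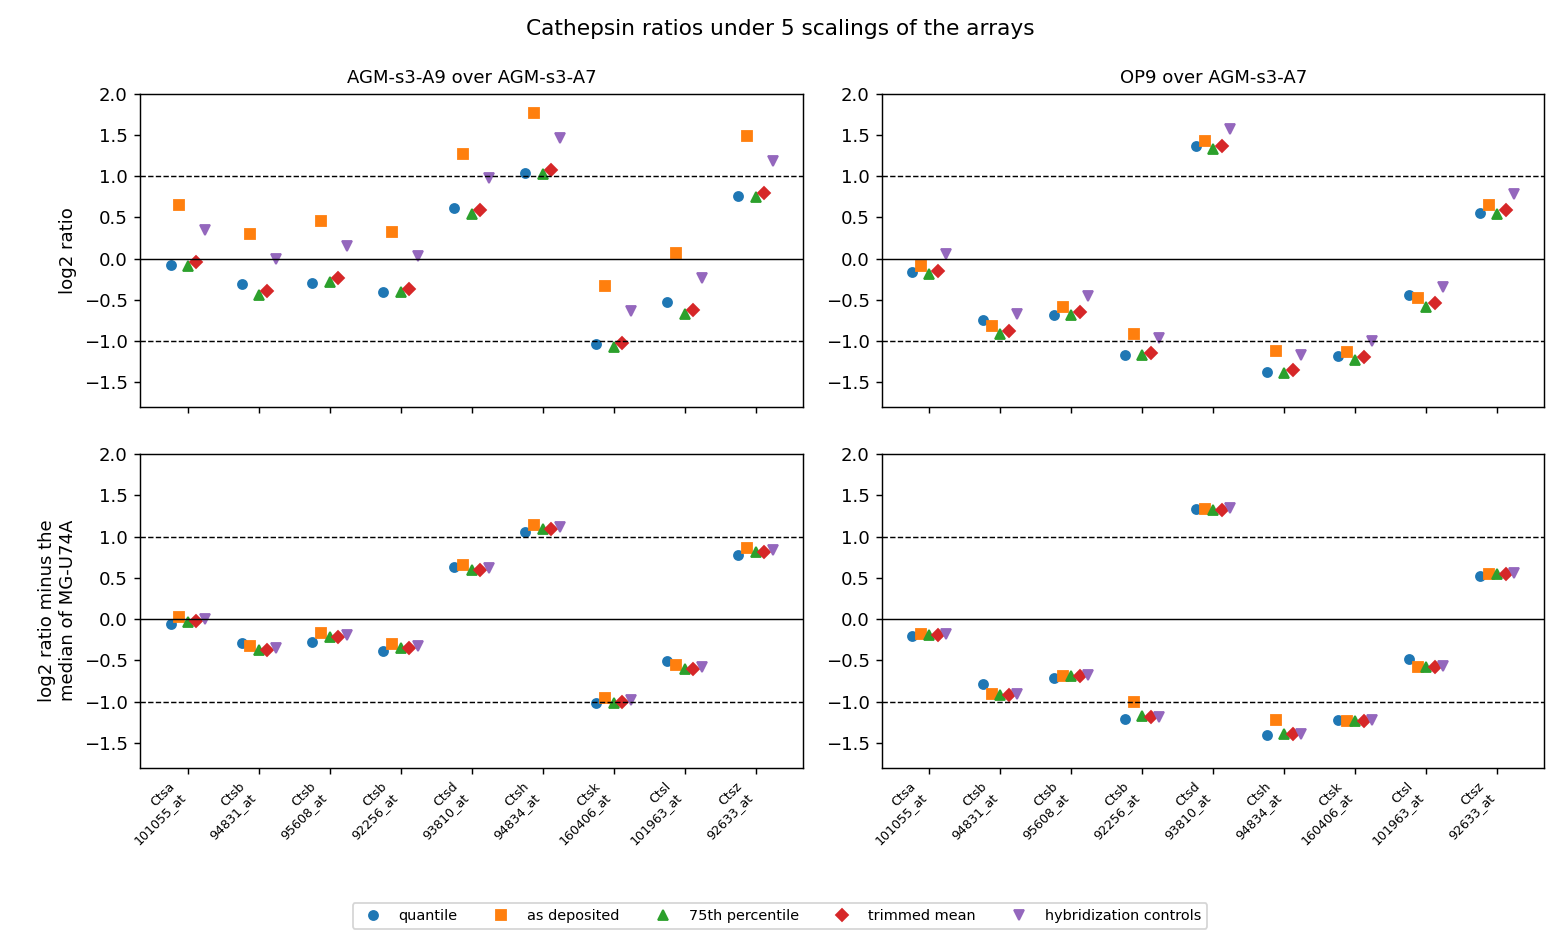
Log2 ratios of the detected cathepsin probe sets under 5 scalings, as such (upper panels) and after subtracting the median log2 ratio of all measured MG-U74A probe sets (lower panels); dashed lines mark 2-fold. In AGM-s3-A9 over AGM-s3-A7 the points of a probe set spread in the upper panel and draw together in the lower one. The subtraction removes a shift common to an array, so they draw together largely by construction.

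Differences between cathepsins on the same array were also formed, for 4 pairs chosen after their values were seen. Apart from quantile normalization, the scalings apply at most 1 factor to a whole array. That factor cancels in such a difference unless a value is a bound, so ranges over the scalings are narrow by construction. Between OP9 and AGM-s3-A7, Ctsd and Ctsk moved apart by 2.55 on the log2 scale (5.87-fold), with 2.55 to 2.56 over the 5 scalings. Between AGM-s3-A9 and AGM-s3-A7 they moved apart by 1.65 (1.61 to 1.65). Ctsz and Ctsk moved apart by 1.74 in OP9 and 1.80 in AGM-s3-A9. Ctsd and the brightest Ctsb probe set moved apart by 2.11 in OP9 and 0.92 in AGM-s3-A9. Ctsh and Ctsk moved apart by 2.07 in AGM-s3-A9 (2.07 to 2.10 over the scalings). In OP9 over AGM-s3-A7, where Ctsh is a bound, their difference was -0.19 and changed sign over the scalings (-0.19 to 0.01).

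The genes that serve the cathepsins were read from fixed lists, by the brightest probe set of each gene. Among cathepsin inhibitors, 14 of 21 listed genes were on the arrays and 8 of these were never detected. Cst3, cystatin C, the main secreted inhibitor of cysteine cathepsins, read 1762 in OP9, 3268 in AGM-s3-A9 and 3748 in AGM-s3-A7, 2.13-fold lower in OP9 and 1.15-fold lower in AGM-s3-A9. A second Cst3 probe set read 124 in OP9, 112 in AGM-s3-A9 and 266 in AGM-s3-A7, so the probe sets share the difference for OP9 and disagree in size for AGM-s3-A9. On the values as deposited the AGM-s3-A9 ratio of the brighter one changed sign, to 0.12 on the log2 scale. Cstb, the intracellular stefin B, was within 1.21-fold in all pairs at quantile normalization. In OP9 over AGM-s3-A7 0 of 6 detected inhibitors were at least 2-fold higher and 2 lower (Cst3 and Kng1), with a median log2 ratio of -0.62, against 5.14% and 5.98% of all 8739 genes.

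Of 40 other lysosomal hydrolases 35 were on the arrays. In OP9 over AGM-s3-A7 2 of 29 detected were at least 2-fold higher, the acid ceramidase gene Asah1 (2.33-fold) and the hyaluronidase gene Hyal2 (2.06-fold), and 1 was lower, Ids (2.37-fold on 1 of 2 detected probe sets). These shares are close to the 5.14% and 5.98% of all genes. The median log2 ratio of the 29 was -0.02. In AGM-s3-A9 over AGM-s3-A7 0 of 29 passed 2-fold in either direction, against 3.08% and 2.28% of all 8590 genes. Lgmn, the asparaginyl endopeptidase that can process cathepsins B, H and L, read 131 in OP9, 146 in AGM-s3-A9 and 229 in AGM-s3-A7, which is 1.75-fold lower in OP9 and 1.57-fold lower in AGM-s3-A9. Its AGM-s3-A9 ratio changed sign over the 5 scalings, with log2 values of -0.67 to 0.07. In OP9 over AGM-s3-A9 3 of 29 were at least 2-fold higher (Asah1, Scpep1 and Man2b1) and 2 lower (Lipa and Arsb). Of all 8760 genes, 5.06% were higher and 6.58% lower. Lipa, the lysosomal acid lipase gene, was 2.49-fold lower in OP9 in that pair.

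Among membrane, sorting and activator proteins, Sort1 and Scarb2 were the 2 of 27 detected genes at least 2-fold up in OP9 relative to AGM-s3-A7, and 0 were lower, where 5.14% and 5.98% of all genes were. Sort1, a sorting receptor with cathepsins D and H among its described cargo, read 442 in OP9, 292 in AGM-s3-A9 and 204 in AGM-s3-A7. Its second detected probe set read 111, 53.8 and 35.2 in the same lines, lowest again in AGM-s3-A7. Igf2r, the cation-independent mannose 6-phosphate receptor, was below AGM-s3-A7 by 1.32-fold in OP9 and above it by 1.51-fold in AGM-s3-A9, and both probe sets of M6pr, the cation-dependent one, were below detection. Lamp1 and Psap stayed within 1.37-fold in the 3 pairs on their brightest probe sets.

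The V-ATPase, which acidifies lysosomes, had a median log2 ratio of 0.36 over 18 detected subunits in OP9 over AGM-s3-A7, with 0 past 2-fold in either direction. In OP9 over AGM-s3-A9 it was 0.49 over 19, with 3 at least 2-fold higher (Atp6v1b2, Atp6ap2 and Atp6v1a) and 0 lower, against 5.06% and 6.58% of all 8760 genes. On the values as deposited these counts were 0 higher and 2 lower. MiT/TFE regulators and their lysosomal sensors had medians of 0.30 and 0.46 over 13 genes in these pairs, with 0 past 2-fold in the first and Lamtor3, Flcn and Lamtor1 at least 2-fold higher in the second. On the values as deposited 1 was higher in the first pair and 1 in the second. With hybridization control scaling 2 and 1 were. Tfeb and Mitf were below detection. The AGM-s3-A9 over AGM-s3-A7 medians of the V-ATPase (-0.20) and MiT/TFE (-0.19) lists changed sign over the 5 scalings, reaching 0.37 and 0.51. The MiT/TFE median in OP9 over AGM-s3-A9 also changed sign, to -0.05 on the values as deposited.

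**Figure D4:**
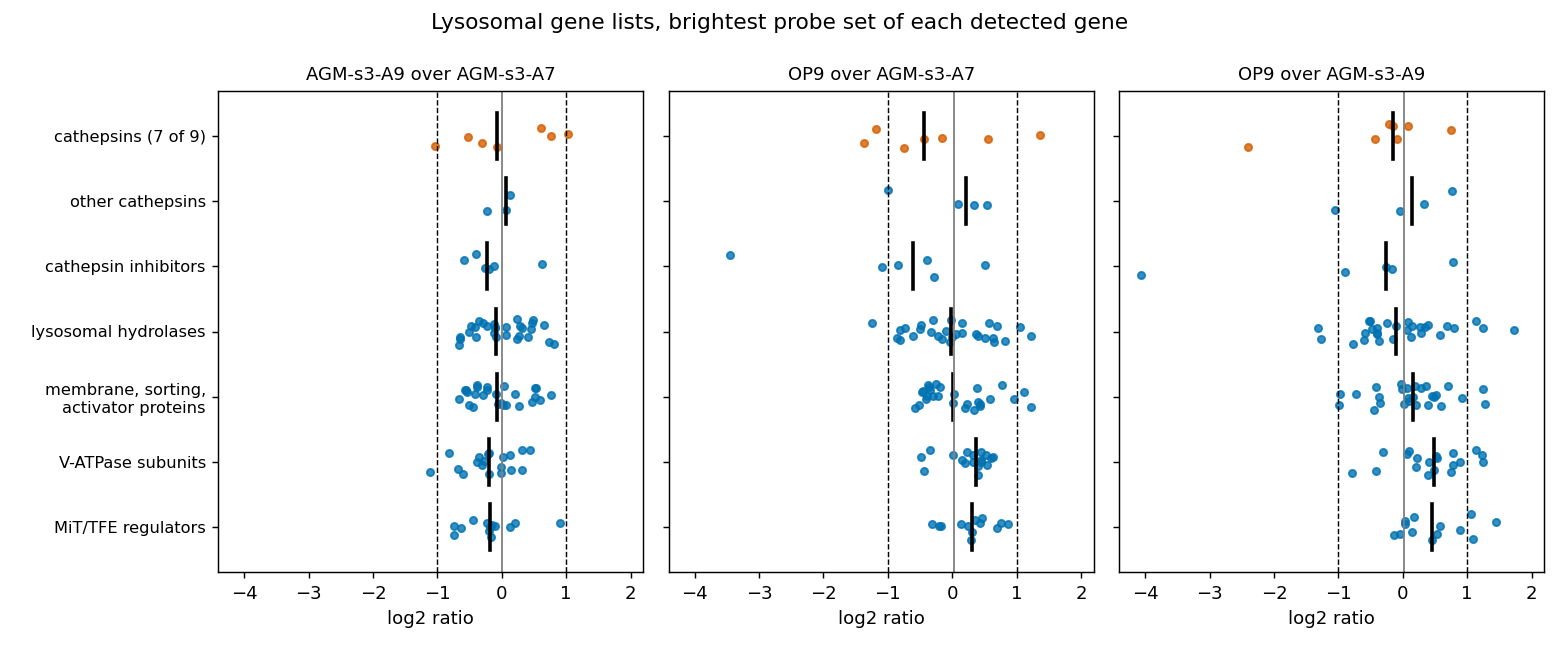
Log2 ratio of each detected gene of 7 lists in the 3 pairs of lines, by brightest probe set, with bounds drawn at their value. Black bars give list medians, the grey line the median over all genes and dashed lines 2-fold. In OP9 over AGM-s3-A7 the cathepsins spread from -1.38, a bound for Ctsh, to 1.37. The hydrolases spread from -1.25 (Ids) to 1.22 (Asah1). The V-ATPase subunits stayed within 2-fold, and the inhibitor Kng1 lay at -3.44, also a bound.

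By the distance of its log2 ratios in AGM-s3-A9 and OP9, each over AGM-s3-A7, the nearest of 69 detected genes of these lists on MG-U74A was Hyal2 for Ctsd (distance 0.33) and Lgmn for Ctsk (0.54). None is given for Ctsh, whose OP9 ratio is a bound. Each profile rests on 3 arrays, so likeness is a description only. Among other cathepsins 4 of 13 on the arrays were detected, namely Ctse, Ctsf, Ctso and Tinagl1. Ctse was counted on a probe set with a cross-hybridisation suffix. Tinagl1 was above the detection level in OP9 alone, at 61.7. Ctsf, a papain-branch member, read 164 in OP9, 169.5 in AGM-s3-A9 and 155 in AGM-s3-A7. Ctso, another papain-branch member, read 248 in OP9, 146 in AGM-s3-A9 and 172 in AGM-s3-A7, so OP9 was highest.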

How the data were processed

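Gene expression was measured in 3 mouse stromal lines, each on 1 array of every MG-U74 type (A, B and C). Each deposited value is a linear intensity of 1 probe set on 1 array. How the authors' software treated background, probe summary and scaling is not given in the sources used here. Per the labels' protocols, RNA was extracted with RNeasy columns and labelled as biotinylated cRNA. Trimmed means (2% off each end) differed by up to 1.61-fold between arrays of a type, so log2 intensities were quantile-normalized within each type (Python 3.11.15, numpy 2.4.6, pandas 2.3.3). Values at or below the detection level were raised to it before ratios were formed, and 2-fold was the threshold for calling a difference. The procedure was tested on simulated data with changes well above 2-fold in bright probe sets. That test does not cover calls near 2-fold or values near the detection level. Precision is limited by the number of arrays.

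Gene symbols came from the platform annotation: 29131 probe sets had 1 symbol, 724 several and 6846 none, and only those with 1 were named. Promoter sequences came from RefSeq (GRCm38.p6). The members, the gene lists and the alternatives were chosen with earlier results of these data known. All 18 member probe sets are accounted for. From the other lists, partners of the cathepsins fixed by name were reported, with up to 3 genes per list, pair and direction past 2-fold; of these, those with most bearing on the cathepsins are given values, and others named on the same lists (Col1a1, Pdgfrb, Tfeb and the like) only as detected or not. Alternatives changed the scaling, the floor, the probe sets kept, the gene summary and the fold.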

Additional observations from a re-analysis of the deposited data

How the results depend on the processing

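No paired analysis was possible because each line has 1 array per array type and the labels give no replicate numbers; for the same reason no replicate could be left out. Of 263 recomputed cathepsin log2 ratios, 226 moved by less than the robust SD between probe sets, 37 by more, and 0 of those past 2-fold changed sign. Some of the 226 could not move. On MG-U74A the median is the detection level, so the median as floor (27 ratios) repeats the main values. Leaving out cross-hybridisation suffixes (27) does too, as no detected cathepsin probe set has one. The gene medians (21) equal the brightest probe sets, and a changed floor alters only ratios with a value near it. The 37 came from the values as deposited (18), hybridization control scaling (8), the control level as floor (4), no floor (4) and a floor at 2 times the detection level (3).

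Cathepsin probe sets at least 2-fold apart numbered 2 in AGM-s3-A9 over AGM-s3-A7, 4 in OP9 over AGM-s3-A7 and 1 in OP9 over AGM-s3-A9. At 1.5-fold there were 4, 6 and 3, and at 3-fold 0, 0 and 1. With no floor, where undetected probe sets enter, there were 8, 9 and 7. In OP9 over AGM-s3-A7, hybridization control scaling and a floor at 2 times the detection level each gave 2; the doubled floor limits OP9 values of Ctsh and Ctsb by construction. In OP9 over AGM-s3-A9 the values as deposited gave 4 and the control level as floor 2. In AGM-s3-A9 over AGM-s3-A7 the split was 1 higher and 1 lower, but 3 and 0 on the values as deposited and 2 and 0 with hybridization control scaling.

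Genes of the fixed lists other than the 9 cathepsins that were at least 2-fold apart numbered 4 of 112, 12 of 114 and 20 of 114 in the 3 pairs. Of all genes, 3.08% were higher and 2.28% lower in the first pair. The shares were 5.14% and 5.98% in the second and 5.06% and 6.58% in the third. At 1.5-fold there were 22, 35 and 43, at 3-fold 1, 4 and 6, and with no floor 27, 38 and 43. In AGM-s3-A9 over AGM-s3-A7 the values as deposited gave 18 and hybridization control scaling 9. In OP9 over AGM-s3-A9 the split was 11 higher and 9 lower, 8 and 22 on the values as deposited and 7 and 11 with hybridization control scaling. In OP9 over AGM-s3-A7 it was 5 and 7, and 9 and 7 with hybridization control scaling. The cause of these shifts beyond the array-wide medians given in the report was not tested. Ctsh in OP9, Ctsc and Ctss are limited by signal at background.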

Other observations

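Several readings on the lists stood out and were chosen after their values were seen. Kng1, which encodes the plasma precursor kininogen and is known chiefly from liver, read 26.9 in OP9, 819.5 in AGM-s3-A9 and 533 in AGM-s3-A7 on its 1 probe set, below AGM-s3-A7 by at least 10.9-fold in OP9. Mmp9, encoding a gelatinase listed here as an osteoclast marker, was above AGM-s3-A7 by 4.83-fold in AGM-s3-A9, and below AGM-s3-A9 by at least 11.5-fold in OP9. Kng1, Mmp9, Cd74, Thy1 and Ctsh ran in the order AGM-s3-A9 above AGM-s3-A7 above OP9. Lipa and Glb1 did too, while Ctsd, Ctsk and Ctsz ran in other orders. How many of all genes have this order was not counted, so it is a description only. Thy1 read 4.61 in OP9, 416 in AGM-s3-A9 and 206 in AGM-s3-A7.

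Ctse, the aspartic cathepsin of gastric and immune cells, gave conflicting readings on MG-U74A. Probe sets 93861_f_at and 93860_i_at read 138 and 138 in OP9, 286 and 228 in AGM-s3-A9 and 274 and 198 in AGM-s3-A7. Both carry a suffix of the group treated here together as cross-hybridisation suffixes. Probe set 104696_at, with no such suffix, read 11.5 in OP9, 2.58 in AGM-s3-A9 and 5.72 in AGM-s3-A7.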
